A study of Mus musculus with 3 samples.

Results

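Transcription factors were compared between mouse liver and Universal Mouse Reference RNA (UMRR), which is pooled from cultured mouse cell lines and sold as a standard. The genes were taken by name from the platform annotation: nuclear receptors (Nr, Ppar, Rxr and Rar symbols, without Nr1h4) and the Hnf, Fox, Klf, Cebp, Gata, Hox, Sox, Pou, Stat, E2f, Ets, Tcf, Atf, Jun, Fos, Pax, Six6, Nfkb, Nfe2, Nfi, Id, Tead, Mef2, Myc, Max and Hhex names. This gave 132 of 16273 probes and 89 of 7984 named genes. Of these, 80 probes and 60 genes gave a ratio on every one of the 3 arrays. The choice was made by symbol and used no measured value. It let in some genes that share only a name, such as opposite-strand transcripts and binding partners, and Hnf4a itself and the C/EBP factors were not analysed here.

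The data were 3 arrays of 2 colours that formed 1 group. On each, amplified RNA of purchased mouse liver (Clontech) carried Cy5, and amplified UMRR (Stratagene) carried Cy3, after a single round of amplification of each. The labels give no strain, age, sex or number of livers. The arrays repeat a single pair of purchased RNAs in 1 dye orientation, so the p-values speak only of variation among these arrays, which may be technical, and any dye bias stays in the ratios. The number of arrays limits the precision. An exact 0 was read as no ratio. Values are log2 ratios of liver over UMRR, with base 2 assumed.

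Sequence-specific transcription factors bind short DNA motifs and set which genes a cell transcribes. Hepatocytes owe their identity to a network of such factors, among them HNF, FOXA, C/EBP and nuclear receptors that sense bile acids, fatty acids, retinoids and drugs. Cultured cell lines, by contrast, divide, and factors of growth and of embryonic lineages are common in them. In bulk RNA, fewer cells of a type and less RNA per cell cannot be told apart.

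The direction of the ratio is not stated with the values and was taken as likely from hepatocyte secretory genes. Of 18 such genes 4 were measured, Apoc3, Ambp, Rbp4 and Vtn, and each was above 0 on every array with means of 4.01 to 5.17. Ttr and Fgb, also on the array, had an exact 0 on at least 1 array. Genes of pancreatic acinar cells were also high on the liver side: 12 of 13 measured passed the test as higher, with a median of 4.30, and Cel alone did not pass (0.22). Of 3 measured transcription factors of acinar and islet cells, 2 passed as higher. The acinar factor Ptf1a stood at 0.42 ± 0.12 (SD, n = 3) and Neurod1 at 0.65 ± 0.36, while Neurog3 did not pass (-0.24). Without moderation of the variance 0 of the 3 passed. The acinar granule gene Reg2 stood at 5.55. Erythroid genes had a median of 3.09, led by Hba-a1 (4.94), with 3 of 5 measured higher, and 5 of 5 without array 1. When an exact 0 was instead counted as a ratio of 1, 1 of 6 was higher and the median was 0.73. The part of these other cells in the results on transcription factors was not tested.

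Transcription factor genes stood on both sides of a ratio of 1, and their middle lay at it. In the limma fit over all genes, at a threshold of 0.05 on the Benjamini-Hochberg adjusted p, 19 of 60 were higher in liver and 19 were lower, while 22 did not pass. Over all 5520 genes tested 30.1% were higher and 33.9% lower, so the share called (63.3% of the factors, 64.0% of all genes) was near the background. The same 30.1% and 33.9% are the background for the counts of families and lists given below. Those counts are small and were not tested against it. The median log2 ratio was -0.026 over the factors and -0.028 over all genes. A ratio at least 2-fold from 1 on each of the 3 arrays was reached by 5 factors on the liver side, where the background was 9.46%, and by 10 on the UMRR side, where it was 9.53%. The 5 were Klf15, Hhex, Nr0b2, Klf9 and Foxo1. The 10 were Gata6, Sox11, Fos, Pou2af1, Id1, Tcf19, Rarg, Jun, Mef2c and Rara. Rara lay at the edge, with -1.003 on array 2. Just outside the limit stood Stat2, at 0.96 on array 1. Ranges of adjusted p given below cover the alternatives that test against a ratio of 1. In a test against a 2-fold difference, which asks for more, E2f4, Ets2, Foxp1, Hoxd3os1, Id2, Klf3, Mycbp, Nfic, Nfkb2, Nr6a1, Sox5 and Stat5b had a limma adjusted p of 1. In that test Rara and Stat2 (adjusted p = 0.243 each) and Rarg (adjusted p = 0.0501) did not pass either.

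**Figure D1:**
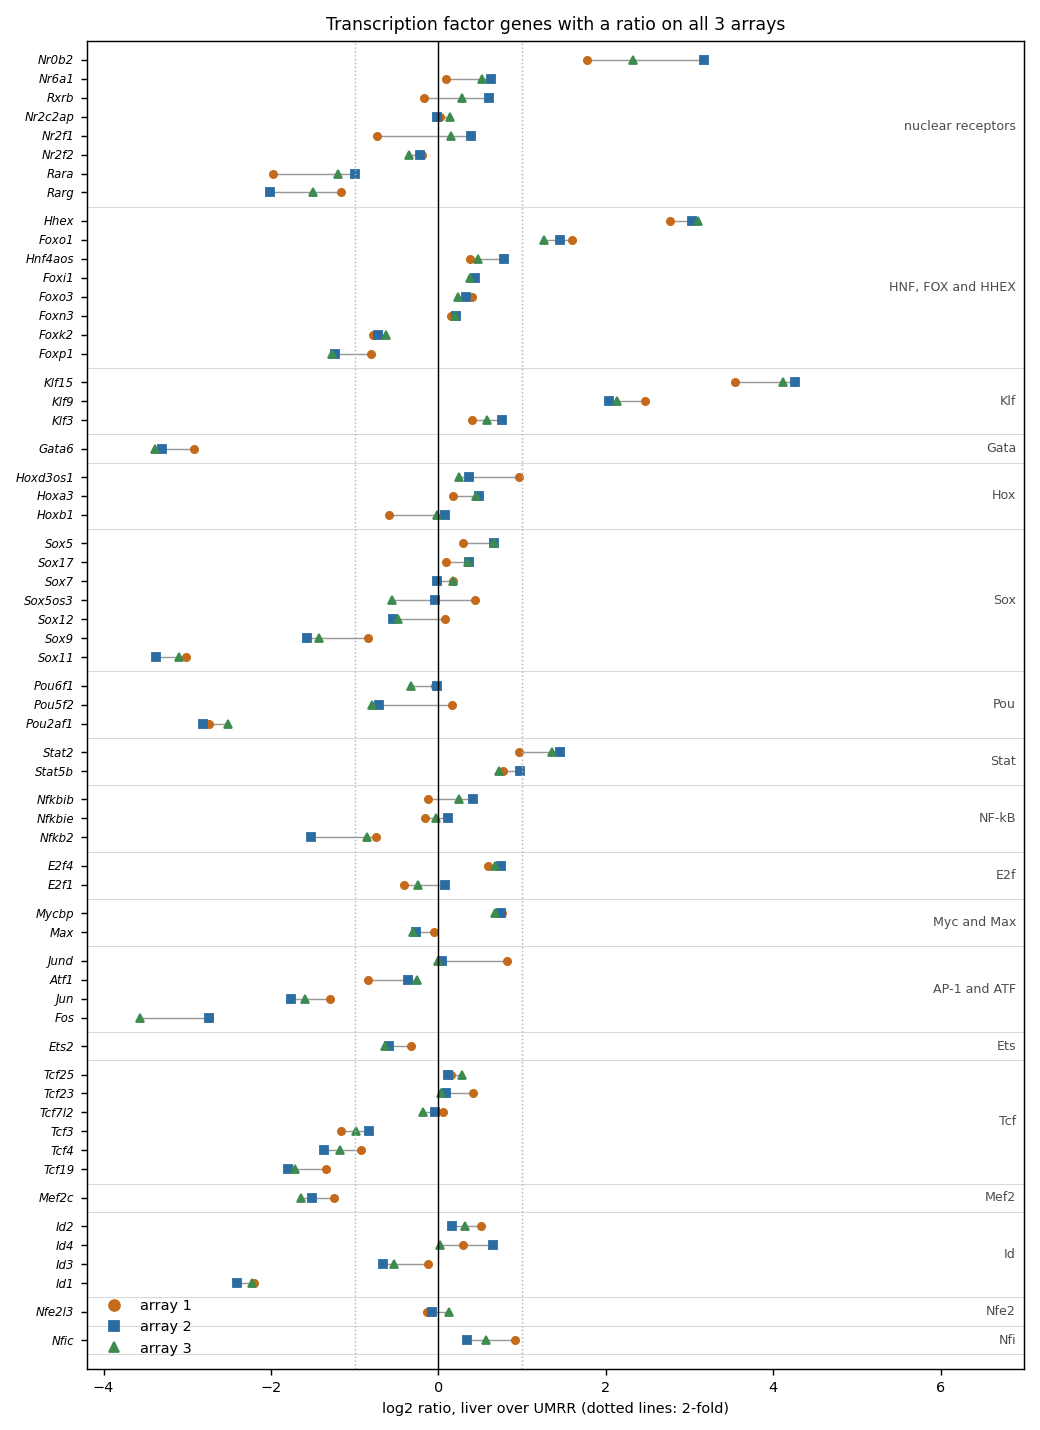
Log2 ratio of liver over UMRR (horizontal axis) of the 60 transcription factor genes with a ratio on all 3 arrays, grouped by family, with 1 symbol per array and a grey line over their range. Klf15, Hhex, Nr0b2, Klf9 and Foxo1 lie right of the dotted 2-fold line on every array, and 10 genes from Gata6 (mean -3.20) to Rara (mean -1.39) lie left of it.

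The Krüppel-like factors, zinc finger proteins that bind GC-rich DNA, had the highest median ratio (2.21) of the families with at least 2 measured members. All 3 members measured on every array were higher in liver. Klf15, a regulator of amino acid and glucose metabolism in fasting, read 3.55, 4.25 and 4.12 on arrays 1, 2 and 3. Its mean was 3.97 ± 0.38 (SD, n = 3), or 15.7-fold, with an adjusted p of 6.31e-06, and it ranked 57 of 5520 genes from the highest. It was measured by 2 probes, with means of 3.66 and 4.28. Klf9, a glucocorticoid-responsive factor, read 2.47, 2.04 and 2.13, a mean of 2.21 ± 0.22 or 4.63-fold (adjusted p = 1.88e-05). Klf3, a repressor, was lower on this scale at 0.58 ± 0.18 (adjusted p = 0.00374), and its call was lost without moderation of the variance (adjusted p = 0.0664, from 0.000218 to 0.0664 over its alternatives against a ratio of 1). Its 2 probes stood at 0.70 and 0.46, and the second did not pass in the limma fit on single probes (adjusted p = 0.0517). The ratios of the 3 genes thus spread from 1.495-fold to 15.7-fold within the family.

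Klf12, a repressor, had an exact 0 on array 1 and so was outside the main test. On arrays 2 and 3 its probe read 4.62 and 4.66, a mean of 4.64 or 24.95-fold on the liver side. When genes with a ratio on at least 2 arrays were let in, its adjusted p was 2.52e-05. That ratio was above the mean of Klf15, but it rests on 1 probe and 2 arrays. Klf13 read 0.61 and 0.39 on the same arrays and was also at exact 0 on array 1.

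Among the homeobox and forkhead factors, Hhex and Foxo1 led. Hhex, a homeobox factor needed for the liver bud, read 2.77, 3.03 and 3.10, a mean of 2.97 ± 0.18 or 7.83-fold (adjusted p = 5.37e-06). Foxo1, which drives gluconeogenic genes when insulin is low, read 1.59, 1.45 and 1.26, a mean of 1.43 ± 0.17 or 2.70-fold (adjusted p = 6.77e-05). Its 2 probes had means of 1.30 and 1.57. Foxo3, a close relative, stood at 0.32 ± 0.083 (adjusted p = 0.0229). It no longer passed when array 2 (adjusted p = 0.119) or array 3 (adjusted p = 0.114) was left out. Foxi1 was likewise higher at 0.41 ± 0.028 and lost its call without array 2 (adjusted p = 0.0604) or array 3 (adjusted p = 0.0738).

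The forkhead genes did not share a direction. Foxp1, a repressor needed in B cell and heart development, read -0.80, -1.24 and -1.27, a mean of -1.10 ± 0.26 or 2.15-fold lower in liver (adjusted p = 0.000409). Its call was lost with exact zeros kept as ratios of 1 (adjusted p = 0.0768, from 3.70e-06 to 0.0768 over its alternatives against a ratio of 1). Foxk2 was lower at -0.71 ± 0.084, with 2 probes at -0.73 and -0.69, and Foxn3 did not pass at 0.18 ± 0.031. Of the 12 genes of this group on the array, 8 were measured on every array, 5 of them higher and 2 lower. Over all genes the shares were 30.1% higher and 33.9% lower. Foxa3, the FOXA factor on the array, was at exact 0 on all 3 arrays. Hnf4aos, an opposite-strand transcript at the Hnf4a locus, read 0.38, 0.78 and 0.47 (mean 0.54 ± 0.21, adjusted p = 0.00634). Its ratio cannot stand for that of Hnf4a.

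Promoter windows of 5 of these genes are shown because they belong to the highest (Klf15, Hhex) and to the lower (Fos, Jun, Mef2c) members that held 2-fold on every array. Each covers 250 bases before to 50 after the start of the gene in RefSeq (build GRCm38.p6), 5′ to 3′ on the strand of the gene. Capitals mark the CCAAT box (CCAAT) and the GC box (GGGCGG) on either strand. All 5 genes are named by the rule for genes. For printing a promoter, a separate rule took Mef2c, and the other windows were picked after the values of their genes were seen.
Klf15, chr6:90462326-90462625, plus strand: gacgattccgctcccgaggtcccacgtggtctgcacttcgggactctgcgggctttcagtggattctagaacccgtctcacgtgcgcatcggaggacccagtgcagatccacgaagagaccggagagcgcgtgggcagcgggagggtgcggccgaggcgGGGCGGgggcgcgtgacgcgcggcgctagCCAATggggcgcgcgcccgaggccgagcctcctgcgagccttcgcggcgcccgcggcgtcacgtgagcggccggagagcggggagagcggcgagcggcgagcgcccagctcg
Hhex, chr19:37434591-37434890, plus strand: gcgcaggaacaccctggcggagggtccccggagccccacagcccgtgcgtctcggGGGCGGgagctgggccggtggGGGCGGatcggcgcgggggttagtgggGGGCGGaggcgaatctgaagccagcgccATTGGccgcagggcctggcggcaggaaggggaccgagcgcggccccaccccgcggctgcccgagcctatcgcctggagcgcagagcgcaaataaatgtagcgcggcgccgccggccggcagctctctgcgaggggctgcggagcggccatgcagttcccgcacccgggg
Fos, chr12:85473640-85473939, plus strand: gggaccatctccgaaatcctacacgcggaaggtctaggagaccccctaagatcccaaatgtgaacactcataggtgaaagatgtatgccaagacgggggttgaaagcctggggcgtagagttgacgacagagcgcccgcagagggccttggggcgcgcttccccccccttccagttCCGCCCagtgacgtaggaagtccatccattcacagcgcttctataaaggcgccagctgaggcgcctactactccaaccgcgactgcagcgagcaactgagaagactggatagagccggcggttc
Jun, chr4:95052173-95052472, minus strand: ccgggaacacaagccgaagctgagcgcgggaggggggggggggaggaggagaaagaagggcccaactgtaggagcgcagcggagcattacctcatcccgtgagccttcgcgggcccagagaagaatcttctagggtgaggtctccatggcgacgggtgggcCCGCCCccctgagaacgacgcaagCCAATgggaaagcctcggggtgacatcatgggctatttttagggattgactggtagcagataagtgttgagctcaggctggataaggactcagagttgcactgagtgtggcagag
Mef2c, chr13:83503784-83504083, plus strand: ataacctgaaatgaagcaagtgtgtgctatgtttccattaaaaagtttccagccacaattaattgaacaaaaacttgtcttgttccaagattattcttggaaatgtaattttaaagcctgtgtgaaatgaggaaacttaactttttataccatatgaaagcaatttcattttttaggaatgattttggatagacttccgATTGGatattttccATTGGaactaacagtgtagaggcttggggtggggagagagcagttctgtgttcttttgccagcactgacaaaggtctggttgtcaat

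The windows differ in base composition: Hhex has 75.7% G and C, Klf15 73.3%, Fos 58.7% and Mef2c 35.7%, beside a median of 52.7% over all 32851 windows. Hhex holds 3 GC boxes, Klf15, Fos and Jun 1 each and Mef2c none. The CCAAT box occurs in 4 of the 5 higher genes and in 6 of the 8 lower genes that had a window, and in 37.4% of all windows. The GC box occurs in 4 of 5 and 6 of 8, and in 35.7% of all windows. The E2F motif (TTTCGCGC, TTTGGCGC or TTTCCCGC) and the cyclic AMP element (TGACGTCA) were found in 0 of these 13 windows, and in 1.85% and 1.79% of all windows. Both strands were searched, the first listed window of each gene was used, and matches of different motifs may share bases.

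Nuclear receptors are ligand-controlled factors, many of which pair with the retinoid X receptors. Of 14 genes with such symbols on the array, 8 were measured on every array. Beside 30.1% higher and 33.9% lower of all genes, 2 of the 8 were higher in liver, 2 lower and 4 not past the test. Nr2c2ap, which is not itself a receptor, is counted among those that did not pass. Nr0b2, known as SHP, is the receptor without a DNA-binding domain that bile acid signalling induces in liver to repress bile acid synthesis. It read 1.77, 3.17 and 2.32, a mean of 2.42 ± 0.70 or 5.36-fold, with an adjusted p of 0.000279. All 3 values were high, but array 2 lay 1.40 above array 1, the largest gap between these arrays among the 60 genes. Without moderation of the variance its call was lost (adjusted p = 0.0622, from 3.33e-06 to 0.0622 over its alternatives against a ratio of 1).

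The retinoic acid receptors were lower in liver. Rara, the form made in most tissues, read -1.97, -1.003 and -1.20, a mean of -1.39 ± 0.51 or 2.62-fold lower (adjusted p = 0.00103). Rarg, the form best known from skin and cartilage, read -1.17, -2.01 and -1.50, a mean of -1.56 ± 0.42 or 2.94-fold lower (adjusted p = 0.000325). Their values overlap, and which is lower differs between arrays 1 and 2. Both lost their calls without moderation of the variance, Rara at an adjusted p of 0.0823 (range over its alternatives against a ratio of 1 1.28e-05 to 0.0823) and Rarg at 0.0573 (5.96e-06 to 0.0573). Rara also lost it with exact zeros kept (adjusted p = 0.0622), although its 1 probe had a ratio on all 3 arrays and its own values were unchanged there.

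Their pairing partner Rxrb, a retinoid X receptor, read -0.17, 0.61 and 0.28 (mean 0.24 ± 0.39, 95% interval -0.14 to 0.62) and did not pass. Without array 1 it passed as higher, at 0.45 (adjusted p = 0.00442). A further Rxrb probe had a ratio on array 1 alone, where it read 0.54. Rxra and Pparg were at exact 0 on every array, and gave no ratio. Nr1i2, the pregnane X receptor that senses drugs, had a ratio on array 2 alone, where its 2 probes read 4.16 and 0.64.

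Of the orphan receptors, Nr6a1, the germ cell nuclear factor, read 0.09, 0.63 and 0.53 (mean 0.42 ± 0.29, adjusted p = 0.0310), but it no longer passed when array 2 (adjusted p = 0.167) or array 3 (adjusted p = 0.158) was left out, nor in further settings (0.000375 to 0.187 over its alternatives against a ratio of 1). Nr2f1, or COUP-TFI, read -0.73, 0.39 and 0.15 (mean -0.065 ± 0.59, 95% interval -0.59 to 0.46). Its sign turned without array 1, when it passed as higher at 0.27 (adjusted p = 0.0307). Nr2f2, or COUP-TFII, read -0.19, -0.22 and -0.35 (mean -0.25 ± 0.082, adjusted p = 0.0540) and passed as lower without array 1 (adjusted p = 0.0174). A further Nr2f2 probe had a ratio on array 2 alone, where it read 0.39. Nr2c2ap, a partner of the receptor Nr2c2, stood at 0.042 ± 0.081. Nr2c2 itself read -0.73 and -0.44 on arrays 2 and 3. Nr4a1 and Nr4a2, immediate early receptors, had a ratio on 1 array each, at 0.027 and -1.13.

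Coregulators carry the effect of the receptors to chromatin. Of 26 listed, 6 were measured on every array (median -0.21). Beside 33.9% lower and 30.1% higher of all genes, 2 of the 6 passed as lower in liver and 0 as higher. The 2 were Trip11 (-0.52 ± 0.18), a Golgi protein listed for its name as a receptor interactor, and Hdac3, the deacetylase of the corepressor complex (-0.47 ± 0.11). The other 5 listed genes on the array had an exact 0 on at least 1 array, and with zeros kept 1 of 11 was lower (median -0.0018). Without moderation of the variance 1 of 6 was lower. Targets of PPAR alpha, the fatty acid receptor of liver, were mostly higher: 7 of 8 measured passed as higher in liver, and the median was 2.26. Decr1, an enzyme of unsaturated fatty acid oxidation, stood at 4.07 ± 0.14 (adjusted p = 2.18e-06), and Angptl4, a lipase inhibitor, at 3.33 ± 0.25 (adjusted p = 5.57e-06). Fabp1, the liver fatty acid binding protein, did not pass at -0.078 ± 0.074. Exact zeros kept as ratios of 1 gave 6 of 14 targets higher, with a median of 0.72.

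Of other factors known as enriched in liver, 3 of 4 measured were higher and 1 lower. Nr1h4, the bile acid receptor FXR that induces Nr0b2, stood at 3.84 ± 0.41 (adjusted p = 8.38e-06), beside 2.42 for Nr0b2. Tef, a clock-controlled PAR bZIP factor, stood at 1.54 ± 0.029, while Zfhx3 was lower at -0.77 ± 0.24. With exact zeros kept or without moderation of the variance, 0 of the 4 passed the limma test as lower.

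The measured E2F genes, Max and Mycbp lay within 2-fold of a ratio of 1, while many listed targets were lower in liver. No MYC gene itself had a ratio on every array. E2F proteins drive genes of DNA replication when the pocket proteins release them. E2f1, an activator, read -0.41, 0.08 and -0.24 (mean -0.19 ± 0.25, 95% interval -0.49 to 0.11) and did not pass. E2f4, a repressor of resting cells, read 0.59, 0.75 and 0.68, a mean of 0.67 ± 0.083 or 1.59-fold higher (adjusted p = 0.00107). Of 10 measured E2F targets, 8 were lower in liver and 0 higher, with a median of -1.52, from Cdk1 (-4.15 ± 0.19) and Ccna2 (-2.93 ± 0.095) to Ccne2 (0.071), which did not pass. Of 10 pocket proteins, dimer partners and cyclin partners, the median was -1.63, and 8 were lower and 1 was higher. Cdkn2c, an inhibitor of Cdk4, stood at -2.32 ± 0.13, and Rbl1, the pocket protein p107 that is also among the targets, at -2.30 ± 0.30. With exact zeros kept, 8 of 16 targets (median -0.55) and 6 of 14 partners (median -0.80) were lower, with 0 partners higher. Without array 1, 2 of the 10 partners were higher.

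MYC binds DNA as a pair with MAX. Max read -0.06, -0.27 and -0.30 (mean -0.21 ± 0.13, 95% interval -0.45 to 0.03) and did not pass, but passed as lower without array 1 (adjusted p = 0.0134). Mycbp, a protein that binds MYC, read 0.76, 0.75 and 0.68, a mean of 0.73 ± 0.045 or 1.66-fold higher (adjusted p = 0.000658), and its 2 probes stood at 0.72 and 0.73. Mycn had a ratio on array 2 alone (0.36). Of 8 measured MYC targets, 7 were lower in liver and 1 was higher, with a median of -1.02. Cdk4 (-1.80 ± 0.18) and Ncl, the nucleolar protein nucleolin (-1.72 ± 0.45), led them, and Shmt2 went against them at 0.78 ± 0.21. Cdk4 is also counted among the pocket proteins, dimer partners and cyclin partners above. Without moderation of the variance 4 of the 8 were lower and 0 higher, and with exact zeros kept 6 of 12 were lower and 1 higher (median -0.61). Of the MAX partners, Mxd4, a repressor that competes with MYC, was higher at 0.86 ± 0.084, and Mga was lower at -1.42 ± 0.062. Tcf19, a growth-regulated gene of the G1 to S transition that shares only the Tcf name, read -1.34, -1.80 and -1.71, a mean of -1.62 ± 0.24 or 3.06-fold lower (adjusted p = 7.29e-05).

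**Figure D2:**
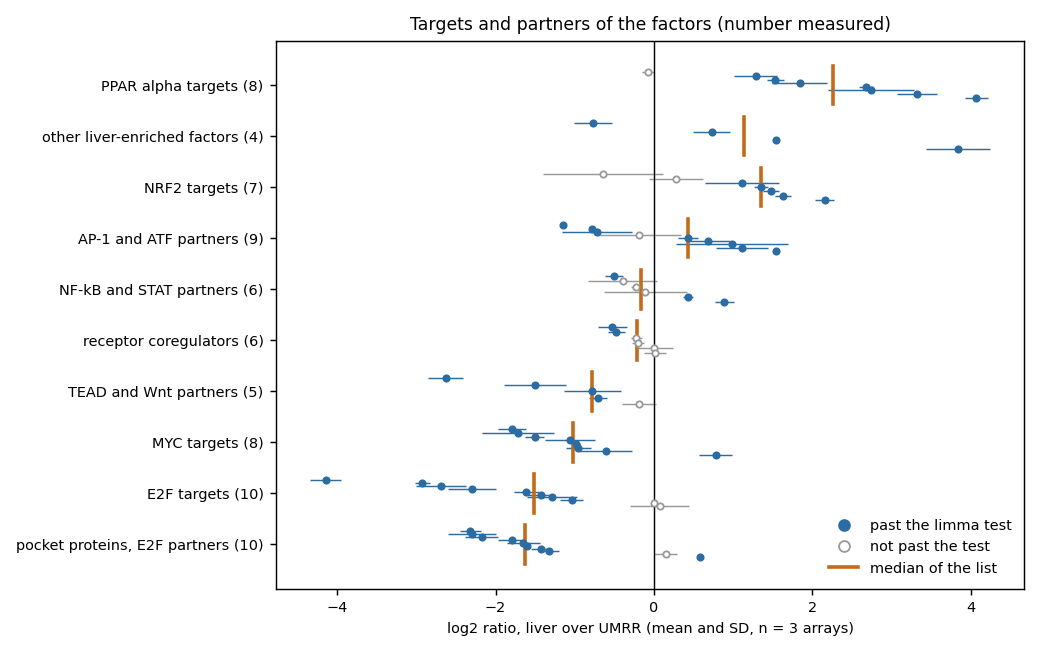
Mean log2 ratio of liver over UMRR (horizontal axis, bars are SD over 3 arrays) of the measured genes of 10 lists of targets and partners, with the number measured in brackets and the median of each list as an orange line. PPAR alpha targets have a median of 2.26, and E2F targets and pocket proteins medians of -1.52 and -1.63.

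Jun and Fos form AP-1, the immediate early factor that growth signals and stress induce within minutes. Both were lower in liver. Fos read -2.74, -2.74 and -3.57, a mean of -3.02 ± 0.48 or 8.09-fold lower (adjusted p = 3.13e-05), with array 3 below the others. Jun read -1.29, -1.76 and -1.59, a mean of -1.55 ± 0.24 or 2.93-fold lower (adjusted p = 8.04e-05). Jund, the AP-1 member of resting cells, read 0.82, 0.04 and -0.0013 (mean 0.29 ± 0.46, 95% interval -0.14 to 0.71) and did not pass. Every value of Fos lay below every value of Jun.

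Atf1, a partner of CREB, was lower at -0.49 ± 0.31 (adjusted p = 0.0202), with probes that disagreed. Both are annotated with the same cDNA, and they read -0.59, 0.19 and 0.22 against -1.09, -0.93 and -0.73. Of 9 measured AP-1 and ATF partners and related stress genes outside the named families, 5 were higher in liver and 3 lower, with a median of 0.43. Besides Tef, Creb1, the cyclic AMP factor, was lower at -1.14 ± 0.027. Without moderation of the variance 1 of the 9 was higher and 2 were lower, and with exact zeros kept 3 of 11 were higher and 2 lower (median 0.16).

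The 2 lowest ratios belonged to factors of embryonic lineages, Gata6 and Sox11. Gata6, a factor of endoderm and heart, read -2.92, -3.30 and -3.39, a mean of -3.20 ± 0.25 or 9.22-fold lower in liver (adjusted p = 5.93e-06). It ranked 5501 of 5520 genes from the highest, the lowest of the 60 factors. Gata2, a factor of blood progenitors, had a ratio on array 2 alone (0.38).

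Sox11, a factor of neural progenitors, read -3.02, -3.38 and -3.10 on the probe with a ratio on every array, a mean of -3.17 ± 0.19 or 8.98-fold lower (adjusted p = 4.76e-06). Of its 3 further probes, 2 were at exact 0 on array 1 and read -3.73 and -2.97 on array 2 and -3.10 and -3.09 on array 3, and the other was at exact 0 on every array. With exact zeros kept, its adjusted p was 0.109 (7.11e-08 to 0.109 over its alternatives against a ratio of 1). Sox9, a factor of cartilage and bile ducts, read -0.84, -1.57 and -1.43, a mean of -1.28 ± 0.39 or 2.43-fold lower (adjusted p = 0.000601). The cholangiocyte list gave no measured gene beside it.

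The other Sox genes lay closer to 1. Sox5 was higher at 0.54 ± 0.21 (adjusted p = 0.00640), but it no longer passed with array 3 left out (adjusted p = 0.0569) or in further settings (0.000141 to 0.0895 over its alternatives against a ratio of 1). Sox17, of endothelium and endoderm, read 0.08, 0.36 and 0.36 and passed as higher without array 1 (0.36, adjusted p = 0.00445). Sox12 read 0.07, -0.55 and -0.48 and passed as lower without array 1 (-0.51, adjusted p = 0.000672). Sox7 (0.11 ± 0.11) and the opposite-strand transcript Sox5os3 (-0.051 ± 0.50) did not pass, and Sox1 was at exact 0. Of the endothelial markers measured beside Sox17 and Sox7, Eng stood at 1.63 and Ramp2 at 0.16.

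Hox genes, which pattern the body axis, had few ratios: 3 of 9 were measured on every array, beside 5520 of all 7984 named genes. Hoxa3 read 0.17, 0.49 and 0.45 (mean 0.37 ± 0.17, adjusted p = 0.0225), but it no longer passed when array 2 (adjusted p = 0.140) or array 3 (adjusted p = 0.166) was left out. Hoxd3os1, an opposite-strand transcript, read 0.96, 0.36 and 0.24 (mean 0.52 ± 0.39, adjusted p = 0.0256) and lost its call with exact zeros kept (adjusted p = 0.197) and without moderation (adjusted p = 0.203), with 0.0123 to 0.203 over its alternatives against a ratio of 1. Hoxb1 stood at -0.18 ± 0.36. Hoxb6 read 0.42 and 0.64 on arrays 1 and 2. Of the paired-box and related homeobox genes, Pax3 (-0.35) had a ratio on array 2 alone and Six6 (-0.14 and -0.08) on arrays 2 and 3.

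Pou2af1 is the B cell coactivator that binds octamer factors. It read -2.74, -2.82 and -2.52, a mean of -2.69 ± 0.16 or 6.46-fold lower in liver (adjusted p = 6.26e-06). Of 6 lymphocyte markers, 3 were lower and 2 higher in liver, with a median of -0.69. The B cell gene Ms4a1 (-3.62 ± 0.25) and the immunoglobulin J chain gene Jchain (-2.41 ± 0.079) were lower, and the heavy chain gene Ighm was higher (1.65 ± 0.41). Their part in the result on Pou2af1 was not tested. Pou5f2, of testis, read 0.16, -0.71 and -0.80, did not pass, and passed as lower without array 1 (-0.75, adjusted p = 7.62e-05). Pou6f1 stood at -0.13 ± 0.18, with probes on both sides of 0.

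Id proteins lack a DNA-binding region and hold E proteins such as those of Tcf3 and Tcf4 away from DNA. Id1 was lower in liver, reading -2.21, -2.41 and -2.23, a mean of -2.28 ± 0.11 or 4.87-fold lower (adjusted p = 8.53e-06). Its 2 probes had means of -2.19 and -2.38. The other Id genes had smaller ratios. Id2 was higher at 0.33 ± 0.18 (adjusted p = 0.0347) and lost its call without array 2 (adjusted p = 0.0562) or array 3 (adjusted p = 0.161), with 0.0280 to 0.161 over its alternatives against a ratio of 1. Id3 was lower at -0.44 ± 0.28 (adjusted p = 0.0245) and lost its call without array 2 (adjusted p = 0.140) or array 3 (adjusted p = 0.127). Its 2 probes stood at -0.71 and -0.17, and the second did not pass in the limma fit on single probes (adjusted p = 0.221). Id4 did not pass (0.32 ± 0.32).

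The E proteins themselves were lower. Tcf3, which encodes E12 and E47, read -1.16, -0.83 and -0.99, a mean of -0.99 ± 0.17 or 1.99-fold lower (adjusted p = 0.000313). Tcf4, which encodes E2-2, read -0.92, -1.36 and -1.18, a mean of -1.15 ± 0.22 or 2.23-fold lower (adjusted p = 0.000252). The 2 Tcf4 probes behind this mean stood apart, at -1.64 and -0.67. A further Tcf4 probe was at exact 0 on array 1 and read -1.98 and -1.89 on arrays 2 and 3, and another was at exact 0 on every array. Tcf7l2, the Wnt effector, is of another family despite its name and stood at -0.058 ± 0.12 (95% interval -0.30 to 0.18). A list of Wnt and TEAD pathway genes had a median of -0.78, and 4 of 5 measured were lower and 0 higher. The lowest were Ankrd1 (-2.63 ± 0.22), a target of the TEAD coactivators, and Wwtr1, the coactivator TAZ (-1.50 ± 0.39). Exact zeros kept as ratios of 1 left 0 of 7 past the limma test, and without moderation of the variance 2 of 5 were lower. Tead1 read 0.11 and -0.83 on arrays 1 and 3.

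Mef2c, a factor of muscle, brain and endothelium, read -1.25, -1.51 and -1.64, a mean of -1.47 ± 0.20 or 2.76-fold lower in liver (adjusted p = 7.84e-05). Its 2 probes with a ratio on every array stood at -1.09 and -1.85, and a further probe read -1.13 and -0.997 on arrays 2 and 3.

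STAT factors carry cytokine and growth hormone signals, and both measured members were higher in liver. Stat2, of the interferon response, read 0.96, 1.45 and 1.36, a mean of 1.25 ± 0.26 or 2.39-fold (adjusted p = 0.000239). Stat5b, the growth hormone effector of liver, read 0.77, 0.98 and 0.72, a mean of 0.82 ± 0.14 or 1.77-fold (adjusted p = 0.000589), and lost its call with exact zeros kept (adjusted p = 0.0861, from 8.01e-05 to 0.0861 over its alternatives against a ratio of 1). A further Stat5b probe read 0.46 and 0.88 on arrays 1 and 2.

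Nfkb2, the NF-kB precursor p100, read -0.74, -1.52 and -0.85, a mean of -1.04 ± 0.42 or 2.06-fold lower (adjusted p = 0.00193). Its call was lost without moderation of the variance (adjusted p = 0.0929) and with exact zeros kept (adjusted p = 0.0727), with 0.000157 to 0.0929 over its alternatives against a ratio of 1. The 1 probe of Nfkb2 held no exact 0, so its own values were unchanged with zeros kept. The inhibitors Nfkbib (0.18 ± 0.27) and Nfkbie (-0.024 ± 0.14) did not pass, and Nfkbib passed as higher without array 1 (0.33, adjusted p = 0.00948). Of the 2 Nfkbib probes, 1 passed in the limma fit on single probes (0.42, adjusted p = 0.00961). The other stood at -0.065, with -0.77 on array 1. Of 6 NF-kB and STAT partners, 2 were higher and 1 lower, with a median of -0.17: the kinase Ikbkb stood at 0.89 ± 0.12 and the STAT inhibitor Socs1 at -0.51 ± 0.12. The median turned to 0.017 without array 1, 2 were lower without array 2, and 1 was higher without array 3.

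Ets2, an effector of the RAS pathway, was lower at -0.52 ± 0.16 (adjusted p = 0.00535) and lost its call without array 3 (adjusted p = 0.0598) and without moderation (adjusted p = 0.0677), with 0.000238 to 0.0677 over its alternatives against a ratio of 1. Its 2 probes stood at -0.70 and -0.34, and the second did not pass in the limma fit on single probes (adjusted p = 0.0547). Nfic, a CCAAT-binding factor, was higher at 0.61 ± 0.29 (adjusted p = 0.00697), with 0.92 on array 1 against 0.34 and 0.57 on the others. It lost its call with exact zeros kept (adjusted p = 0.0932) and without moderation (adjusted p = 0.113), with 0.00231 to 0.113 over its alternatives against a ratio of 1. The 1 probe of Nfic held no exact 0 either. Nfe2l3, a relative of the oxidative stress factor NRF2, stood at -0.028 ± 0.14, and Nfe2l1 was at exact 0. Of 7 measured NRF2 targets, 5 were higher and 0 lower in liver, with a median of 1.35, led by Ephx1, an epoxide hydrolase (2.16 ± 0.12), and Me1, malic enzyme (1.63 ± 0.10). With exact zeros kept 4 of 10 were higher (median 0.36), and without array 2 or without array 3 Srxn1 passed as lower, making 1 lower.

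Probes of a gene mostly gave like ratios, with exceptions that bear on single calls. In the fit on single probes 53 of 80 passed, 26 higher and 27 lower (66.2%, against 64.9% of all 9910 probes). Distances between the highest and lowest probe were taken over probes with a ratio on every array. The distance had a median of 0.31 over the 18 factors with at least 2 such probes and 0.34 over all 1328 such genes. It reached 1 in 2 of the 18 (11.1%) and in 15.9% of all. Tcf25, a protein of ribosome quality control, had the widest distance: probes at -0.43 and -0.53 stood beside a probe at 1.495, and the 3 are annotated with 3 different cDNAs. Each passed in the limma fit on single probes (adjusted p = 0.0123, 0.00403 and 3.46e-05), and their mean, 0.18, did not. A further probe read -0.72 and -0.99 on arrays 1 and 2 and an exact 0 on array 3. With the median probe Tcf25 passed as lower (-0.43, adjusted p = 0.0110). Pou6f1 had probes at 0.45, -0.016 and -0.83, of which the outer ones passed in opposite directions. Which transcript each of these probes reads was not tested.

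**Figure D3:**
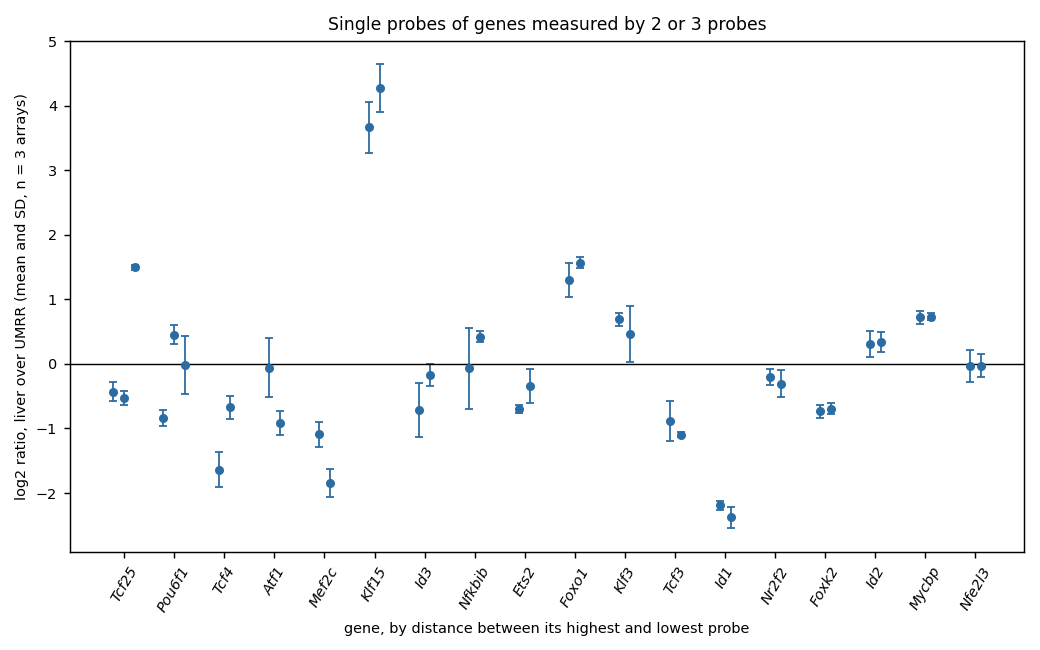
Log2 ratio of liver over UMRR (vertical axis, mean and SD over 3 arrays) of single probes, with genes ordered by the distance between their probes. Drawn are the probes with a ratio on all 3 arrays, for the 18 transcription factor genes with at least 2 such probes. Tcf25 spans 2.02 and Pou6f1 1.28 log2 units across 0, while the probes of Klf15, Foxo1, Id1 and Mef2c keep to 1 side.

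Array 1 stood apart from the others for these genes too. The SD of the difference between arrays over the 60 factors was 0.50 for arrays 1 and 2, 0.42 for arrays 1 and 3 and 0.26 for arrays 2 and 3. The sign was shared by all 3 arrays for 46 of 60 (76.7%), against 79.5% of all genes. Array 1 alone had the opposite sign for 7 of 60 (11.7%), against 11.2% of all genes. Without array 1 the counts were 23 higher and 23 lower, and each gene that gained a call there is named above.

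**Figure D4:**
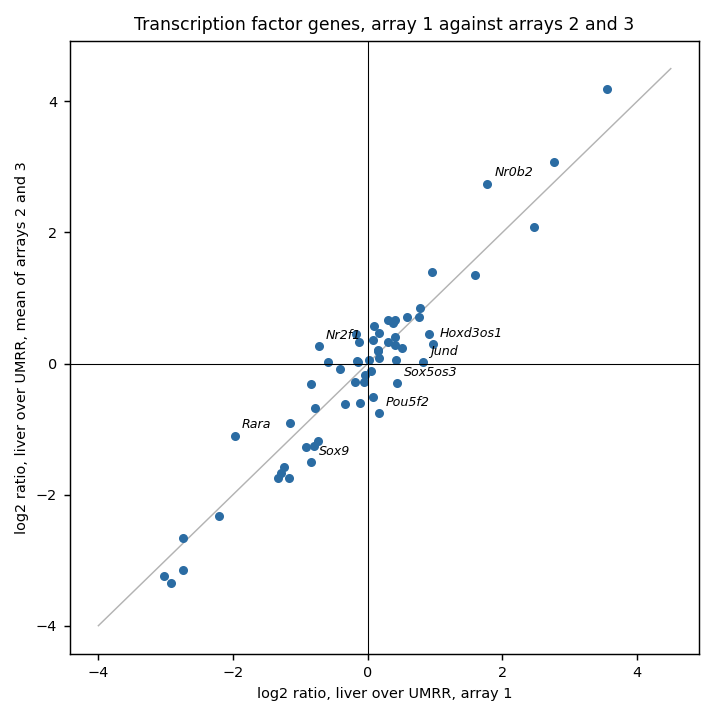
Log2 ratio of liver over UMRR on array 1 (horizontal axis) against the mean of arrays 2 and 3 (vertical axis) for the 60 transcription factor genes, with the line of equal values in grey. Each point is a gene, and those farthest from the line are named, among them Nr0b2 at 1.77 on array 1.

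Of the 29 factors outside the main test, 12 had a best probe with a ratio on 2 arrays, 9 on 1 array and 8 on none. The 8 were Foxa3, Foxp2, Hoxc9, Nfe2l1, Pparg, Rxra, Sox1 and Tcf20. Of all 7984 named genes, 809 had a best probe with a ratio on 2 arrays, 619 on 1 array and 1036 on none. Exact zeros made up 34.1%, 18.2% and 27.3% of the 132 probes on arrays 1, 2 and 3, and 12 probes were at exact 0 on array 1 alone. Over all 12336 probes with 1 symbol the shares were 30.3%, 21.4% and 27.8%, and 765 probes were at exact 0 on array 1 alone. With a ratio on at least 2 arrays 22 of 72 factors were higher and 22 lower. Atf7ip, Foxp4, Hoxa4, Hoxb5, Six6 and Tead1 did not pass there, and Hoxaas3, Pou3f2 and Tcf21, with a ratio on 1 array each, lay between -0.14 and 0.078. Tcf23, measured on all 3 arrays, did not pass (0.18 ± 0.21). The genes added by the lower demand were Klf12, Klf13 and Hoxb6 on the liver side and Foxn2 (-0.91), Nr2c2 (-0.58) and the antisense transcript Hoxaas2 (-0.56) on the UMRR side.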

How the data were processed

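The authors deposited 1 signed value per probe and array, a log2 ratio of both dyes as they processed it; the labels name no scanner, background correction, dye normalization or log base. Base 2 was taken from the size of the values, and natural logs would multiply each by 1.44. No intensities were used, so dim probes could not be filtered. Probes with 1 symbol (12336) were named from the platform annotation, and all 89 member genes matched the reference gene table by identifier.

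Probes with a ratio on all 3 arrays were averaged per symbol. An intercept was fitted over 5520 genes in R 4.3.3 by limma 3.58.1 (lmFit, then eBayes), two-sided, with Benjamini-Hochberg adjustment over all genes and a threshold of 0.05. The fit was tried on 20 simulated data sets with normal noise and 200 genes changed in each. In the data 3535 of 5520 genes were called, so the simulated setting differs and does not bear on the counts given here. Intervals are 95% limma intervals. Depth does not apply to arrays.

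The members, gene lists and tests were chosen with earlier results of these data known. The naming rule took every measured nuclear receptor, members 2-fold from 1 on every array, the highest and lowest of each family and, of each list, the 2 largest ratios past the test. For the lists it was not followed in full. The macrophage, fibroblast, HNF target and C/EBP target lists are not described, and the acinar and erythroid lists are named in part. Further members, and list genes beyond those 2, were named after their values were seen. Alternatives were centring, scaling, exact zeros kept, at least 2 arrays, the median probe, leaving out each array, other variance settings, a threshold of 0.01 and a test against 2-fold.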

Additional observations from a re-analysis of the deposited data

How the results depend on the processing

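No paired analysis was possible because the arrays form 1 group. Subtracting array medians or scaling the arrays left 19 transcription factor genes higher and 19 lower, and 9 rather than 10 were 2-fold lower throughout. Counting exact zeros as ratios of 1, 12 of 89 were higher and 12 lower. Without moderation of the variance 10 were higher and 12 lower, and against a 2-fold difference 5 and 8. Leaving out 1 array gave 13 to 23 higher, 17 to 23 lower, 5 to 6 at least 2-fold higher, 10 to 13 at least 2-fold lower and 44 to 66 of 80 single probes past the test. The median over the factors, -0.026 as reported, ranged from -0.031 without array 2 to 0.036 without array 1, with 0.0018 without array 3, so it turned sign. Without members that share only a name, an alternative chosen after seeing the data, the median was -0.062, with 16 of 50 higher and 17 lower. Read as natural logs, another such alternative, 7 genes were 2-fold higher and 15 lower on every array.

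Of 40 genes named by the rule, 28 passed the test, and 11 of these kept direction and call under every alternative named in the processing. Leaving out 1 array turned the sign of Hoxb1 (-0.31 to 0.029), Nfe2l3 (-0.11 to 0.027), Nr2f1 (-0.29 to 0.27) and Nr2c2ap (-0.0029 to 0.074); it also turned for Tcf25 with the median probe (-0.43) and with exact zeros kept (-0.0074). Calls were lost for 10 genes with exact zeros kept, 11 without moderation, 15 against 2-fold, 3 at a threshold of 0.01, 2 without array 2 and 4 without array 3. The causes were not tested. With 3 arrays of 1 RNA pair and no intensities, ratios of dim probes could not be told from those of bright ones.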
